A study of Capra hircus with 11 samples.

Results

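The retinoid metabolism and response genes DHRS3, ALDH1A3, CRABP1 and RARB were followed in single cells of goat (Capra hircus). They were taken by symbol from the 5 count tables of the series, which together hold 16678 gene rows, and RefSeq's list of goat genes holds all 4 symbols. DHRS3 and ALDH1A3 were listed in every table, CRABP1 in 3 tables and RARB in 3 tables. The cells were ear fibroblasts before induction (BFRTV0d, with 10670 barcodes), such cells kept for 4 days (BFRTV4d, with 10203 barcodes) or for 8 days (BFRTV8d, with 10152 barcodes) in the BFRTV induction medium, day-8 cells that were passaged further in a mammary epithelial cell medium (CiMECs, 5188 barcodes) and naturally derived goat mammary epithelial cells (GMECs, 5641 barcodes). The labels name 3, 3, 2, 1 and 2 samples for these groups, and each group came as 1 pooled table whose barcodes carry no sample, so there were no replicates and no significance test. The compounds in the medium are not given in the labels, and no source says whether the samples of a group were separate cultures. Plates were coated with Matrigel, and the induction medium was renewed every 2 days.

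Retinoids are made from vitamin A. Retinol is oxidised to retinaldehyde and then, irreversibly, to retinoic acid, which binds nuclear receptors and switches on target genes. DHRS3 is a reductase that turns retinaldehyde back into retinol and thereby limits retinoic acid. ALDH1A3 is an aldehyde dehydrogenase that makes retinoic acid from retinaldehyde. CRABP1 binds retinoic acid in the cytosol, and RARB is a nuclear retinoic acid receptor whose own promoter answers to retinoic acid in mammals. In many cell types DHRS3 and RARB are used as indicators of retinoic acid signalling, and in the mammary gland retinoid signalling is known for effects on epithelial differentiation.

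Counts are unique molecular identifiers (UMIs) from the 3′ end of transcripts, and a level in CPM is the UMIs of a gene divided by all UMIs of the table, or of the cells named, and multiplied by 1000000. Total UMIs lay between 97203521 and 117500853 per table, and the median barcode held between 9089 and 19424 UMIs. Between 37 and 147 barcodes were shared by any pair of tables, between 0.590% and 1.40% of the first table of a pair. A fold is a ratio of CPM values followed by its 95% interval, which is a counting interval only and does not cover differences between cultures. It treats UMIs as independent, so it is too narrow where few cells hold most UMIs of a gene. A gene was compared where it reached 10 CPM in either table, and counted as different from 2-fold upwards. In bulk sums of this kind, fewer cells of a type and less RNA per cell cannot be told apart, and for that reason each gene was also read within classes of cells. No ribosomal protein gene was found in the BFRTV tables, which hold no barcode under 1951 UMIs, while the CiMECs and GMECs tables list 74 such genes, with 25.6% and 35.0% of their UMIs, and go down to 500 UMIs. In comparisons across these sets of tables, the making of the table and the group cannot be told apart.

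The results showed that the 4 genes had 4 different courses. DHRS3 was at 2.51 CPM (295 UMIs) in BFRTV0d, at 680.9 CPM (72684 UMIs) in BFRTV4d and at 1344 CPM (138847 UMIs) in BFRTV8d, and it was at 11.7 CPM (1141 UMIs) in CiMECs and 14.7 CPM (1631 UMIs) in GMECs. It was therefore high only during induction, and low in the starting fibroblasts, in the passaged cells and in the natural mammary cells. ALDH1A3 was at 10.5 CPM (1233 UMIs) in BFRTV0d, at 4.56 CPM (487 UMIs) in BFRTV4d and at 7.06 CPM (730 UMIs) in BFRTV8d, and it was at 194.6 CPM (18918 UMIs) in CiMECs and 170.8 CPM (18960 UMIs) in GMECs. Both mammary cell tables thus lay above every BFRTV table, unlike for DHRS3. CRABP1 was at 19.6 CPM (2095 UMIs) in BFRTV4d, 28.5 CPM (2940 UMIs) in BFRTV8d and 0.108 CPM (12 UMIs) in GMECs, and it was listed neither in BFRTV0d nor in CiMECs. RARB was at 0.434 CPM (51 UMIs) in BFRTV0d, 22.5 CPM (2404 UMIs) in BFRTV4d and 6.87 CPM (710 UMIs) in BFRTV8d, and it was not listed in CiMECs and GMECs. RARB thus peaked at day 4, whereas DHRS3 and CRABP1 had their highest table level at day 8. Neighbouring levels had counting intervals that did not overlap, for ALDH1A3 in CiMECs and GMECs 192 to 197 CPM and 168 to 173 CPM.

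**Figure D1:**
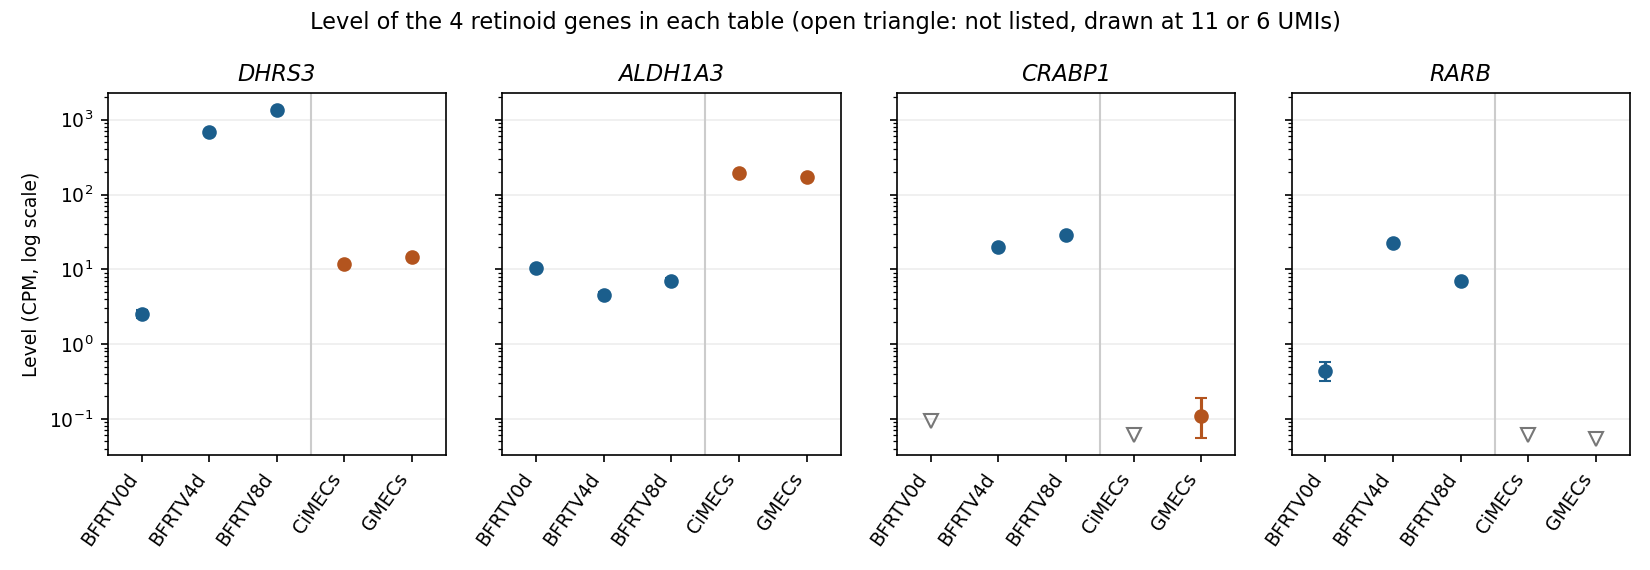
Level of the 4 genes in each of the 5 tables, in CPM on a log scale, with 95% counting intervals and no replicates, where open triangles stand for unlisted genes at 11 UMIs in BFRTV0d and 6 UMIs in CiMECs and GMECs. DHRS3 lies at 680.9 and 1344 CPM in BFRTV4d and BFRTV8d and under 15 CPM elsewhere, while ALDH1A3 is highest in CiMECs and GMECs.

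What the first 4 days of induction changed was read from BFRTV4d against BFRTV0d. All 4 genes passed 10 CPM in 1 of these tables. DHRS3 was 271-fold higher in BFRTV4d (242 to 305) and RARB was 51.9-fold higher (39.3 to 69.9). ALDH1A3 was 2.30-fold lower (2.07 to 2.56). CRABP1 was 209.6-fold higher if BFRTV0d held 11 UMIs, the fewest cells in which these tables list a gene. Because CRABP1 was concentrated in few cells, more UMIs could stand behind an unlisted gene, and the fold was 55.6 with 10 cells at the mean of 4.15 UMIs found in CRABP1-positive cells of BFRTV4d. So 3 of the 4 genes were higher, against 13.4% of the 8949 genes compared, and 1 was lower, against 25.4%. The 3 higher genes were under 10 CPM or unlisted in BFRTV0d and passed the limit only through BFRTV4d. ALDH1A3 passed it only through BFRTV0d. None of them could be called in the other direction, so this count is a description only. The median over all genes compared was -0.39 on the log2 scale.

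The call on ALDH1A3 at day 4 depended on the scaling and on a few barcodes. The fold was 0.502 with TMM factors, which moved the median of all genes by 0.23 on the log2 scale and turned the share of higher calls among all calls to 46.3%, against 34.4% with table totals. Without the 5% of barcodes with the most UMIs the fold was 0.565, and with the mean of CPM over cells it was 0.560, and in these 3 settings the difference was under 2-fold. ALDH1A3 was at 10.5 CPM in BFRTV0d, just over the limit of 10 CPM. In these settings it fell under that limit and was not compared. With median-of-ratios scaling it was not compared either, at a fold of 0.498. The ratio of DHRS3 rose as well, from 271 to 434 without the deepest barcodes.

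After 8 days the gap to day 0 was larger for DHRS3, 535-fold higher in BFRTV8d than in BFRTV0d (477 to 602). CRABP1 was 303.9-fold higher with 11 UMIs in BFRTV0d, and 39.0-fold higher with 10 cells at the mean of 8.57 UMIs of a CRABP1-positive cell of BFRTV8d. ALDH1A3 was at 0.673 of its day-0 level (0.613 to 0.738), which is less than 2-fold apart. RARB was 15.8-fold higher (11.9 to 21.5), at under 10 CPM in both tables, and was left out of the count. Of the 3 genes counted 2 were higher, against 19.7% of 9317 genes, and none was lower, against 28.0%. DHRS3 and CRABP1 passed 10 CPM only through BFRTV8d, and ALDH1A3 only through BFRTV0d. This count is therefore a description only.

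Between day 4 and day 8 the genes parted. DHRS3 was 1.97-fold higher in BFRTV8d than in BFRTV4d (1.96 to 1.99), just under the limit of 2-fold. RARB was 3.28-fold lower in BFRTV8d (3.01 to 3.57). CRABP1 was 1.45-fold higher (1.37 to 1.53) in the sum over all barcodes, but at 0.984 of its day-4 level without the 5% deepest barcodes and at 0.881 as a mean over cells. ALDH1A3 was 1.55-fold higher at under 10 CPM in both tables. None of 3 genes was called higher, against 10.7% of 8469 genes, and 1 was called lower, against 7.10%. The lower gene, RARB, passed 10 CPM only through BFRTV4d and could not be called higher.

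The counts per cell showed how differently the genes were spread over the cells. Cells were thinned to 3000 UMIs each, and shallower barcodes were left out (45 of BFRTV4d and 8 of BFRTV8d, 837 of CiMECs and 889 of GMECs, and none of BFRTV0d). DHRS3 then had a UMI in 0.581% of cells of BFRTV0d, 85.7% of BFRTV4d and 97.4% of BFRTV8d, and in 2.39%, 98.8% and 99.96% of cells before thinning. The median cell held 2 DHRS3 UMIs in BFRTV4d and 4 in BFRTV8d. Its variance over cells was 1.21 times the mean in BFRTV4d and 1.32 times the mean in BFRTV8d, close to the value of 1 that random sampling of equal cells gives. It was thus nearly the whole population that carried DHRS3, and not a subset. To gather 50% of its UMIs, 29.3% of the cells of BFRTV4d and 32.2% of those of BFRTV8d were needed.

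CRABP1 was the opposite case. After thinning it had a UMI in 2.50% of cells of BFRTV4d and 1.47% of cells of BFRTV8d, against 4.95% and 3.38% before thinning, so fewer cells had it at day 8. Its variance was 7.77 times the mean in BFRTV4d and 15.5 times the mean in BFRTV8d. In BFRTV4d 44 cells (0.431%) held 50% of the CRABP1 UMIs, and in BFRTV8d 12 cells (0.118%) did. A single cell of BFRTV8d held 305 of the 2940 UMIs, and 45 cells with 10 or more UMIs held 83.7% of them.

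RARB had a UMI in 0.197% of thinned cells of BFRTV0d, 6.36% of BFRTV4d and 1.85% of BFRTV8d, and in 0.478%, 18.2% and 6.05% before thinning. No cell of any table held more than 5 RARB UMIs, and the variance was 1.08 and 1.09 times the mean in BFRTV4d and BFRTV8d. With means of only 0.0684 and 0.0196 UMIs per thinned cell, such a ratio does not show that cells carried RARB evenly. ALDH1A3 had a UMI in 1.27% of thinned cells of BFRTV0d, 1.17% of BFRTV4d and 1.90% of BFRTV8d, and in 40.9% of CiMECs and 34.3% of GMECs, against 3.32%, 4.02%, 6.08%, 72.6% and 70.6% before thinning. In BFRTV0d the variance of ALDH1A3 was 2.69 times the mean, and 37 cells held 50% of its UMIs. In CiMECs and GMECs 786 and 825 cells did, 15.2% and 14.6% of each table. DHRS3 had a UMI in 3.38% of thinned cells of CiMECs and 3.94% of GMECs, against 17.2% and 23.4% before thinning.

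**Figure D2:**
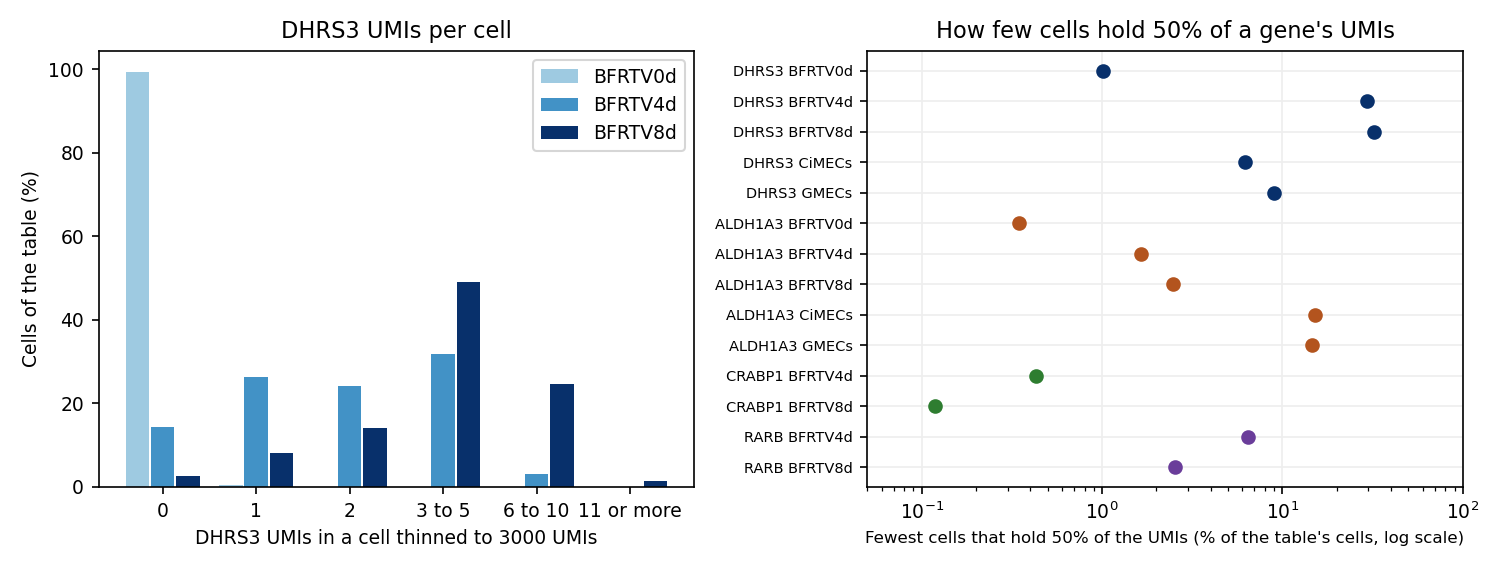
Left, share of cells (%) by the number of DHRS3 UMIs in a cell thinned to 3000 UMIs, for the 3 BFRTV tables. Right, the fewest cells that hold 50% of a gene's UMIs, as a percentage of the cells of a table on a log scale, for each gene and table with at least 200 UMIs. DHRS3 needed 29.3% and 32.2% of the cells of BFRTV4d and BFRTV8d, CRABP1 0.431% and 0.118%.

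The cells of the BFRTV tables were then divided by markers, 16 epithelial genes such as EPCAM and KRT8 against 13 mesenchymal genes such as COL1A1 and DCN. A cell with at least 3 marker UMIs of 1 kind and 3 times as many as of the other was taken as epithelial-marker or mesenchymal-marker. Epithelial-marker cells were 604 (5.66%) in BFRTV0d, 4732 (46.4%) in BFRTV4d and 9653 (95.1%) in BFRTV8d, and mesenchymal-marker cells were 9906 (92.8%), 4729 (46.3%) and 349 (3.44%). These classes are ranges of a score and not cell types, and between 0.722% and 5.73% of cells lay within 2-fold of a limit. The median epithelial-marker cell held 70, 43 and 46 epithelial UMIs and 8, 2 and 0 mesenchymal UMIs at day 0, 4 and 8, and the median mesenchymal-marker cell held 0, 1 and 5 epithelial UMIs and 108, 40 and 49 mesenchymal UMIs. The other 160, 742 and 150 cells fell in neither class and were deeper, with a median of 17788, 14681.5 and 16718 UMIs, and no doublet caller was run. In CiMECs 99.7% and in GMECs 99.96% of barcodes were epithelial-marker cells.

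Free RNA puts UMIs of 1 cell type into droplets of another, so 2 markers that had no part in the division, the epithelial keratin KRT5 and the collagen COL1A2, served as a gauge. KRT5 was 106-fold, 23.8-fold and 13.1-fold higher in epithelial-marker than in mesenchymal-marker cells of BFRTV0d, BFRTV4d and BFRTV8d. COL1A2 was 22.8-fold, 32.2-fold and 134.8-fold higher in mesenchymal-marker than in epithelial-marker cells. After thinning, KRT5 had a UMI in 4.44%, 31.4% and 40.7% of mesenchymal-marker cells (median 9899, 9433 and 11700 UMIs before thinning) and COL1A2 in 22.7%, 6.87% and 1.28% of epithelial-marker cells (median 16356.5, 9487.5 and 8962 UMIs). KRT14, a further epithelial keratin kept out of the division, had a UMI in 8.97%, 23.5% and 54.7% of thinned mesenchymal-marker cells. Such shares rise with the level of a gene, so a sparse gene can lie under them whatever its source. The ratio between the classes was set beside that of KRT5 or COL1A2 instead. The part of free RNA in the class where a gene was lower was not tested.

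DHRS3 was carried by both classes. In BFRTV4d it was at 704.8 CPM in epithelial-marker and 660.2 CPM in mesenchymal-marker cells, a ratio of 1.07 (1.05 to 1.08). In BFRTV8d it was at 1347 CPM in epithelial-marker and 1370 CPM in mesenchymal-marker cells, a ratio of 0.983 (0.957 to 1.01). The levels were thus equal to within 10% in cells that differed more than 13-fold in KRT5, and the thinned shares of cells with a DHRS3 UMI were 86.7% and 84.5% in BFRTV4d and 97.4% and 96.3% in BFRTV8d. In BFRTV0d the few UMIs lay mostly in the small epithelial-marker class, at 13.8 CPM against 1.02 CPM in mesenchymal-marker cells (13.5-fold, 10.5 to 17.5). Mesenchymal-marker cells were 647-fold higher in BFRTV4d than in BFRTV0d (534 to 791), and epithelial-marker cells were 51.1-fold higher (43.7 to 60.1). The first of these rests on 105 UMIs in BFRTV0d.

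ALDH1A3 belonged to the epithelial-marker cells. In BFRTV0d it was at 85.4 CPM in epithelial-marker cells and 1.47 CPM in mesenchymal-marker cells, a 58.2-fold difference (49.0 to 69.6), so that 5.66% of the cells held 79.8% of the UMIs. In BFRTV4d the levels were 8.32 and 0.609 CPM, 13.7-fold apart (9.36 to 20.7), and in BFRTV8d 7.40 and 0.238 CPM, the second from 1 UMI. In BFRTV0d and BFRTV4d these ratios were smaller than those of KRT5, 106-fold and 23.8-fold. In BFRTV8d the ratio of ALDH1A3 was 31.1-fold (5.56 to 1229), above that of KRT5, with an interval that includes the KRT5 value. Its thinned shares in mesenchymal-marker cells were 0.313%, 0.0848% and 0 of 349 cells, which allows a share of up to 1.05%, against 15.6%, 2.25% and 1.99% of epithelial-marker cells. The difference to day 0 was larger within epithelial-marker cells than in the whole tables. In these cells ALDH1A3 was 10.3-fold lower in BFRTV4d than in BFRTV0d (9.14 to 11.6) and 11.5-fold lower in BFRTV8d than in BFRTV0d (10.5 to 12.7), while the whole tables were 2.30-fold and 1.49-fold apart. The share of epithelial-marker cells moved in the opposite direction over the same days. Before thinning, 33.8% of the 604 epithelial-marker cells of BFRTV0d had a UMI and 29 cells had 10 or more, against 7.06% of 4732 cells and 1 cell in BFRTV4d. The cells of BFRTV0d were deeper, with a median of 16356.5 against 9487.5 UMIs, which raises such unthinned values.

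CRABP1 belonged to the mesenchymal-marker cells. In BFRTV4d it was at 1.08 CPM in epithelial-marker cells and 39.6 CPM in mesenchymal-marker cells, a 36.9-fold difference. COL1A2 was 32.2-fold apart there. The thinned share of epithelial-marker cells with CRABP1 was 0.340% in BFRTV4d and 0.664% in BFRTV8d. In BFRTV8d the levels were 5.27 and 486.7 CPM, 92.4-fold apart, beside 134.8-fold for COL1A2. The 349 mesenchymal-marker cells, 3.44% of BFRTV8d, held 69.5% of its CRABP1 UMIs. A further 17.3% lay in epithelial-marker cells, where 5 cells had 10 or more and the richest had 153. Within mesenchymal-marker cells CRABP1 was 12.3-fold higher in BFRTV8d than in BFRTV4d (11.5 to 13.1), and 10.9-fold higher (10.2 to 11.7) without the richest cell of each table. As few cells held most CRABP1 UMIs, these intervals are too narrow. The thinned share of mesenchymal-marker cells with a CRABP1 UMI was 20.3% (16.2% to 24.95%) in BFRTV8d and 4.73% (4.14% to 5.37%) in BFRTV4d, and 29.2% and 8.65% before it. The 1.45-fold difference of the whole tables thus stood beside a much larger one in a class that made up 3.44% of BFRTV8d and 46.3% of BFRTV4d.

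RARB also lay mainly in mesenchymal-marker cells, at 3.99 CPM in epithelial-marker and 40.6 CPM in mesenchymal-marker cells of BFRTV4d (10.2-fold) and at 5.00 and 43.8 CPM in BFRTV8d (8.77-fold). COL1A2 was 32.2-fold and 134.8-fold apart. The thinned share of epithelial-marker cells with RARB was 1.23% in BFRTV4d and 1.39% in BFRTV8d. In mesenchymal-marker cells the share was 11.1% in BFRTV4d and 13.5% in BFRTV8d. Within mesenchymal-marker cells RARB was at 1.08 of its day-4 level in BFRTV8d (0.922 to 1.25), and within epithelial-marker cells at 1.25 (1.06 to 1.49). Neither class thus showed the 3.28-fold lower level of the whole table of BFRTV8d. The share of mesenchymal-marker cells was 3.44% in BFRTV8d and 46.3% in BFRTV4d, and its part in the table level was not tested. At day 0, by contrast, the class that held 92.8% of the cells had only 0.486 CPM, and mesenchymal-marker cells were 83.6-fold higher in BFRTV4d than in BFRTV0d (63.2 to 113).

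**Figure D3:**
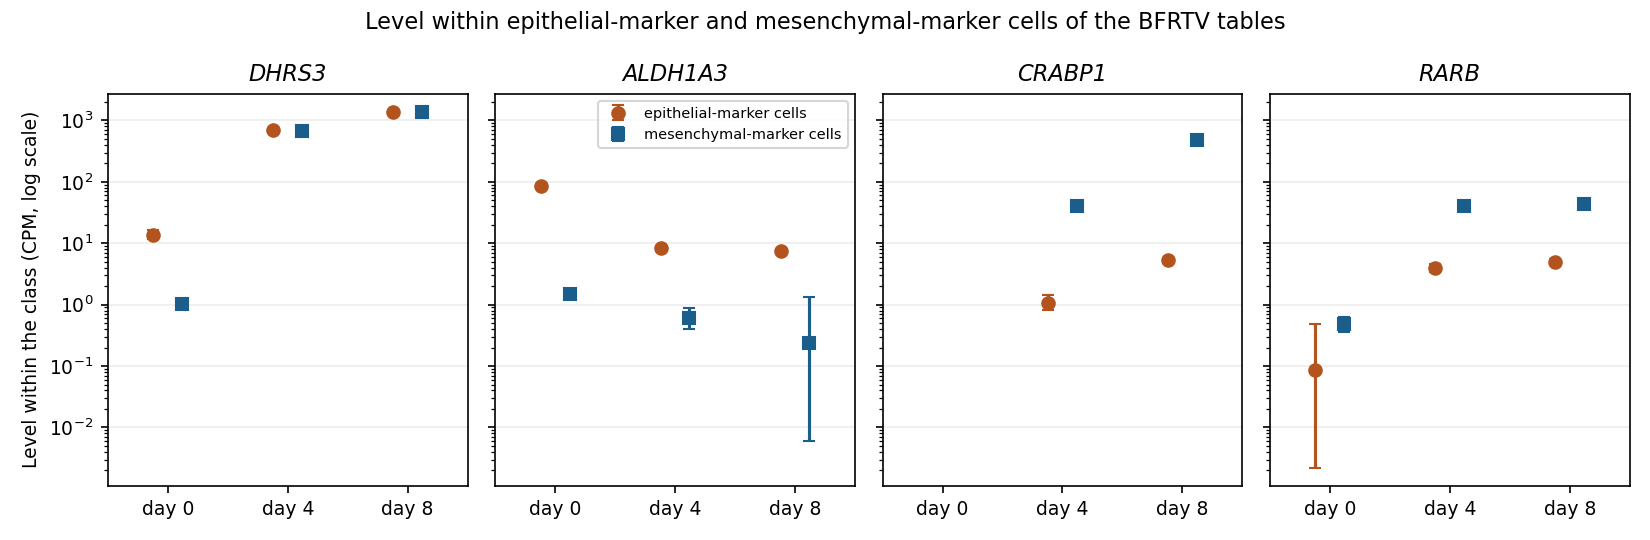
Level of the 4 genes within epithelial-marker (circles) and mesenchymal-marker cells (squares) of the BFRTV tables at day 0, 4 and 8, in CPM of the class on a log scale with 95% counting intervals, without replicates. DHRS3 lies at the same level in both classes at day 4 and day 8, ALDH1A3 is higher in epithelial-marker cells, and CRABP1 and RARB are higher in mesenchymal-marker cells, with RARB in mesenchymal-marker cells at 40.6 CPM at day 4 and 43.8 CPM at day 8. CRABP1 was not listed at day 0.

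Within a class, the thinned counts of the 4 genes showed no common pattern from cell to cell. ALDH1A3, CRABP1 and RARB had no UMI in most of these cells, so a shared pattern could be missed. In the mesenchymal-marker cells of BFRTV4d, 86.5% of the 223 thinned cells with a CRABP1 UMI had a DHRS3 UMI, as did 84.4% of the 4496 cells without one. None of the rank correlations between these genes within a class was above 0.0819, a size that counts as no finding in sparse counts. The genes most correlated with DHRS3 over the cells of BFRTV8d (HNRNPA1, Pearson r = 0.12) and with ALDH1A3 over the cells of CiMECs (FN1, r = 0.179) were weak in the same way.

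Over the 5 tables, other genes had courses like those of the 4. The likeness was the root mean square difference of centred log2(CPM + 1) values over 9664 genes, and a smaller value means more alike. Nearest to DHRS3 were LPAR6 (0.959), a lysophosphatidic acid receptor, SESN3 (0.976), a stress-induced sestrin, and LOC102179515 (1.01). LPAR6 was at 1.65, 241, 815.7, 2.78 and 0.766 CPM in BFRTV0d, BFRTV4d, BFRTV8d, CiMECs and GMECs. Nearest to ALDH1A3 were LOC108636734 (0.393), NOV (0.49), a secreted matricellular protein, and RNF183 (0.518). CRABP1 had THEM5 (0.142), FAM107A (0.183) and BARX2 (0.192), a homeobox factor, as its nearest genes, at 23.5, 25.7 and 16.0 CPM in BFRTV4d and 26.9, 36.5 and 35.4 CPM in BFRTV8d. RARB had SYNPO2 (0.119), CP (0.172), which encodes ceruloplasmin, and MYH11 (0.246), a smooth muscle myosin heavy chain, all of them highest in BFRTV4d. With 5 tables such likeness is a description only.

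To place the 4 genes in the pathway, 66 other genes in 8 lists by role were read in the same tables, of which 47 were listed in at least 1 table. In BFRTV4d against BFRTV0d 29 of them could be compared, and 6 were higher and 5 lower, beside 13.4% higher and 25.4% lower of all genes, with a median of -0.19 on the log2 scale against -0.39 over all genes. In BFRTV8d against BFRTV0d 9 were higher and 6 lower of 30, beside 19.7% and 28.0% of all genes, with a median of 0.11 against -0.29. In BFRTV8d against BFRTV4d 4 were higher and 5 lower of 28, beside 10.7% and 7.10% of all genes, with a median of 0.09 against 0.12. The pathway as a whole therefore did not share the large differences of DHRS3, CRABP1 and RARB.

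Among genes of uptake and transport, RBP4, the plasma carrier of retinol, was at 38.2 CPM in BFRTV4d and 31.6 CPM in BFRTV8d, against 235.3 CPM in BFRTV0d, 6.16-fold (5.96 to 6.37) and 7.45-fold lower (7.18 to 7.73). Within the classes RBP4 was 1.57-fold lower in epithelial-marker and 2.39-fold lower in mesenchymal-marker cells of BFRTV8d than of BFRTV0d. Of the enzymes that convert retinol and retinaldehyde, RDH10, which oxidises retinol to retinaldehyde and acts against DHRS3, was at 5.94 CPM in BFRTV4d and 5.33 CPM in BFRTV8d, against 44.4 CPM in BFRTV0d, 7.47-fold (6.88 to 8.13) and 8.32-fold lower (7.62 to 9.10). RDH10 was lower in both classes, 8.72-fold in epithelial-marker and 7.05-fold in mesenchymal-marker cells of BFRTV8d. RDH10 and DHRS3 thus stood in opposite directions in both classes, and RDH11 and DHRS7 were less than 2-fold apart.

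ALDH1A1, a second enzyme of retinoic acid synthesis, was not listed in BFRTV0d and was at 5.56 CPM in BFRTV4d and 15.2 CPM in BFRTV8d, 162-fold higher in BFRTV8d if BFRTV0d held 11 UMIs, which is no bound, as for CRABP1. It was 2.73-fold higher in BFRTV8d than in BFRTV4d (2.48 to 3.01), and higher in both classes. The list of enzymes that break retinoic acid down, with 3 CYP26 genes, gave 0 genes to compare in any of the comparisons. Of the other binding proteins, FABP5, a fatty acid binding protein that also binds retinoic acid, was 4.57-fold higher in BFRTV8d than in BFRTV0d (4.50 to 4.63) and CRABP2, which carries retinoic acid to the receptor, was 1.31-fold higher. Within the classes CRABP2 was lower at day 8, at 594.6 CPM in BFRTV8d and 695.7 CPM in BFRTV0d in epithelial-marker cells and at 123.1 and 401.5 CPM in mesenchymal-marker cells. Within epithelial-marker cells FABP5 was at 1042 CPM in BFRTV8d and 1038 CPM in BFRTV0d, and it was at 577.7 CPM in BFRTV4d. Between BFRTV8d and BFRTV4d FABP5 was 3.21-fold higher in the table of BFRTV8d (3.17 to 3.25), 1.80-fold higher within epithelial-marker and 1.95-fold higher within mesenchymal-marker cells.

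The other retinoic acid receptors did not follow RARB. RARA was at 16.8 CPM in BFRTV4d and 16.2 CPM in BFRTV8d against 46.6 CPM in BFRTV0d, 2.78-fold and 2.88-fold lower. RARG was at 42.1 CPM in BFRTV4d and 57.2 CPM in BFRTV8d, against 104.7 CPM in BFRTV0d. RARG was 2.49-fold lower in BFRTV4d, and this was found within mesenchymal-marker cells (36.0 against 112.6 CPM) but not within epithelial-marker cells (47.2 against 44.7 CPM). Of the 9 coregulators, NRIP1, a corepressor that is itself retinoic acid responsive in human cells, was 3.51-fold higher in BFRTV4d (3.33 to 3.70) and 4.31-fold higher in BFRTV8d (4.09 to 4.55) than in BFRTV0d. The coactivator NCOA3 was 3.31-fold and 2.52-fold higher. Both were also more than 2-fold higher within each class at each day.

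Of 18 genes known as retinoid-induced in other systems, 7 could be compared in BFRTV4d against BFRTV0d, and 4 were higher and 0 lower, beside 13.4% and 25.4% of all genes. In BFRTV8d against BFRTV0d 4 were higher and 2 lower of 8, beside 19.7% and 28.0% of all genes. In BFRTV8d against BFRTV4d 1 was higher and 4 were lower of 8, beside 10.7% and 7.10%. MGP, ICAM1, TNFAIP2 and HOXA5 were under 10 CPM in both marker classes of BFRTV0d and were compared through their higher levels during induction. These were the 4 genes called higher in BFRTV8d against BFRTV0d, and they could not be called lower there. The list was also chosen with earlier results known, so these counts are a description only. MGP, a matrix protein that inhibits calcification, was at 234.4 CPM in BFRTV4d and 73.4 CPM in BFRTV8d, against 2.66 CPM in BFRTV0d, 88.3-fold (78.9 to 99.0) and 27.6-fold higher (24.7 to 31.0). Like CRABP1, MGP was higher in BFRTV8d than in BFRTV4d within mesenchymal-marker cells, with 1145 CPM in BFRTV8d and 454.2 CPM in BFRTV4d, but unlike for CRABP1 the whole table of BFRTV8d was 3.20-fold lower than that of BFRTV4d. ICAM1, an adhesion molecule, was 8.24-fold (7.54 to 9.03) and 5.37-fold higher (4.90 to 5.90), and TNFAIP2 6.02-fold and 10.5-fold higher. HOXA5, a homeobox factor, was 35.2-fold higher in BFRTV8d than in BFRTV0d (25.1 to 50.7), at 10.5 against 0.298 CPM. Within epithelial-marker cells HOXA5 was 6.03-fold higher (3.92 to 9.78). Within mesenchymal-marker cells it was 16.3-fold higher, from only 8 UMIs in BFRTV8d and 12 UMIs in BFRTV0d. MEIS1 was 2.51-fold higher in BFRTV4d than in BFRTV0d and 3.98-fold lower in BFRTV8d than in BFRTV4d (3.73 to 4.25), at 68.6 CPM in BFRTV8d and 77.0 CPM in BFRTV4d within mesenchymal-marker cells. RARRES2, which encodes chemerin, was 4.52-fold lower in BFRTV8d than in BFRTV4d (4.09 to 5.01), at 52.6 against 39.6 CPM within mesenchymal-marker cells.

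**Figure D4:**
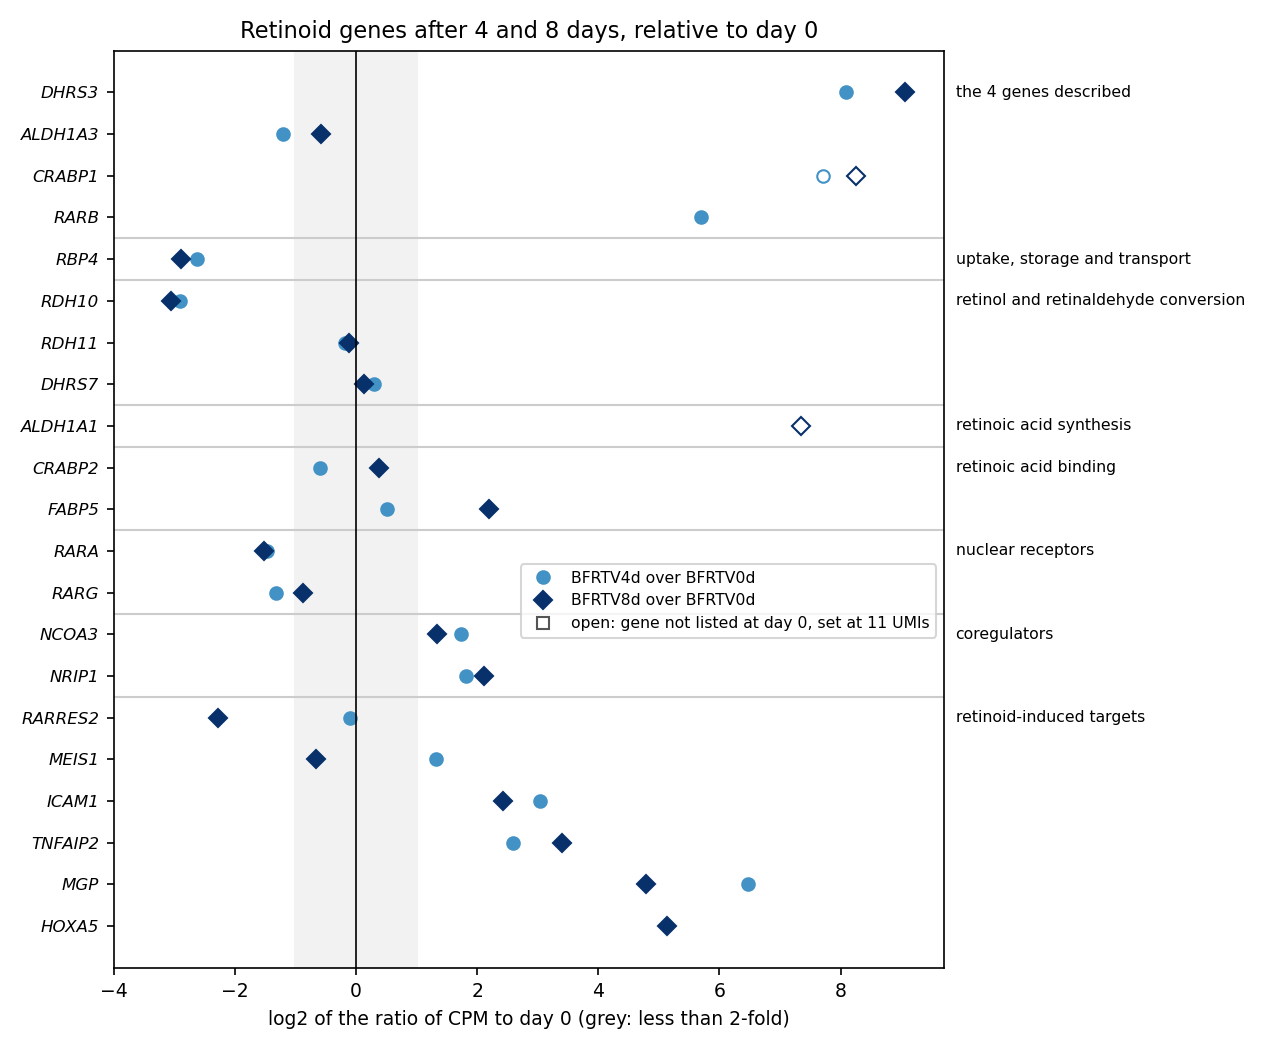
log2 ratio of CPM of BFRTV4d (circles) and BFRTV8d (diamonds) to BFRTV0d for the 4 genes and for the pathway genes described in the text that reached 10 CPM in either table, grouped by role. The grey band marks differences under 2-fold and open symbols genes not listed at day 0, set at 11 UMIs. DHRS3, CRABP1 and ALDH1A1 lie farthest to the right, and RDH10 and RBP4 farthest to the left.

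The comparison of CiMECs with BFRTV8d asks what differed after the induced cells had been passaged in mammary epithelial cell medium. DHRS3 was 114-fold lower in CiMECs (108 to 121), CRABP1 was 461-fold lower with 6 UMIs set for the CiMECs and 64.5-fold lower with 5 cells at the mean of a CRABP1-positive cell of BFRTV8d, and ALDH1A3 was 27.6-fold higher (25.6 to 29.7). Of these 3 genes 1 was higher, against 5.34% of 8066 genes, and 2 were lower, against 57.9%. CRABP1 passed 10 CPM only through BFRTV8d and ALDH1A3 only through CiMECs, so neither could be called in the other direction. RARB was under 10 CPM in both. Against the epithelial-marker cells of BFRTV8d alone the values were nearly the same, with DHRS3 115-fold lower (108 to 122) and ALDH1A3 26.3-fold higher (24.4 to 28.4). The median over all genes was -1.24 on the log2 scale, and TMM factors moved it by 1.36 and the share of higher calls to 54.6%, against 8.45% with table totals. With these factors DHRS3 was at 0.0197 and ALDH1A3 at 62.1 times the level of BFRTV8d, so the directions held. Of 29 pathway genes 6 were higher and 19 lower. The largest differences were those of CEBPE, a myeloid transcription factor, 122-fold higher, TGM2, a transglutaminase known as a retinoic acid target, 9.22-fold higher, MGP, 285-fold lower, and HOXA5, 92.5-fold lower in CiMECs. CRABP2 was at 1799 CPM in CiMECs and 568.2 CPM in BFRTV8d.

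Between CiMECs and GMECs, which were made alike as tables, the genes were close. DHRS3 was at 0.799 of the GMECs level (0.740 to 0.862) and ALDH1A3 at 1.14 (1.12 to 1.16). None of these 2 genes was 2-fold apart, against 8.03% of 6056 genes higher and 17.0% lower. Without ribosomal protein genes in the total ALDH1A3 was at 0.996 and DHRS3 at 0.698, and the share of higher calls was 17.4%, against 32.0% with table totals and 54.9% with TMM factors. The direction of ALDH1A3 between these tables thus depended on the total, and no difference was read from it. ALDH1A3 was also carried by the shallow barcodes, at 193 CPM in the 670 barcodes of CiMECs under 2000 UMIs and 123.7 CPM in the 765 of GMECs, against 194.6 and 171.1 CPM in the deeper ones. Other pathway genes separated the tables clearly. FABP5 was 12.5-fold and CRABP2 3.71-fold higher in CiMECs, and ALDH1A1 was 31.4-fold and TGM2 7.30-fold lower in CiMECs.

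The comparison of GMECs with BFRTV0d sets natural mammary cells against the starting fibroblasts. In GMECs the level of ALDH1A3 was 16.3-fold that of BFRTV0d (15.4 to 17.3), and for DHRS3 the ratio was 5.85 (5.17 to 6.65). So 2 of 2 genes were higher, against 6.42% of 8503 genes, and none was lower, against 57.2%. DHRS3, at 2.51 CPM in BFRTV0d, passed 10 CPM only through GMECs and could not be called lower. RARB, 8.03-fold lower with 6 UMIs set for GMECs, was under 10 CPM and left out. This count is therefore a description only. The median of all genes was -1.16 on the log2 scale and the share of higher calls 10.1%, against 52.3% with TMM factors, with which the folds were 34.3 and 12.3. Against the epithelial-marker cells of BFRTV0d alone, GMECs had 2.00-fold more ALDH1A3 (1.88 to 2.13) and 1.06 times the DHRS3 (0.904 to 1.26). CiMECs had 2.28-fold more ALDH1A3 (2.14 to 2.43) and 0.85 times the DHRS3 (0.720 to 1.01) than those cells. These ratios against a class used totals that include ribosomal protein genes only in GMECs and CiMECs. They were not read with other scaling, which raised the ratios of the whole tables. With these totals, the passaged and the natural mammary cells were thus closer in both genes to the epithelial-marker cells found before induction than to those of day 4 and day 8. In the latter, DHRS3 was at 704.8 and 1347 CPM and ALDH1A3 at 8.32 and 7.40 CPM.

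Markers of other cells were low in all tables. Endothelial genes summed to at most 3.01 CPM, immune genes to at most 7.82 CPM and adipocyte genes to at most 1.94 CPM, and the erythroid genes searched were not listed. Melanocyte and Schwann cell genes summed to 81.1 CPM in BFRTV0d, of which S100B made 75.1 CPM, while SOX10 was not listed there. Their part in the levels of the 4 genes was not tested.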

How the data were processed

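Goat cells were measured with the Single Cell 3′ kit, version 2, of 10x Genomics. The authors deposited 5 tables of UMI counts per gene and barcode, 1 per group, not normalized. FastQC 0.10.1 and Cell Ranger are named in the processing notes of the submitters. Genome build and annotation: not given in the sources used here, and neither coordinates nor sequences are printed. Table columns carried no sample name, and the 11 samples of the labels were not separated.

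Counts were summed per table and scaled to CPM in Python 3.11.15 (numpy 2.4.6, scipy 1.17.1, pandas 2.3.3). Folds are ratios of CPM with 95% conditional binomial intervals, CPM have exact Poisson intervals, and shares of cells have Clopper-Pearson intervals, all for counting error only. Genes with at least 10 CPM in 1 of 2 tables were compared and counted from 2-fold, and a gene not listed was set at the fewest cells its table lists (11 or 6). The fold counting and intervals were tested on simulated counts. TMM factors came from edgeR 4.0.16 in R 4.3.3. The 4 genes were given with all values, and from the pathway lists genes of at least 10 CPM were named, with at least the 2 largest folds in each direction of each BFRTV comparison. The nearest 3 genes over tables and the best correlated genes over cells were named too. The 4 genes, the lists and the markers were chosen with earlier results of these data known. Folds within classes, and the mean-based value for an unlisted CRABP1, were added after seeing the data. Some genes of the lists are counted in the list totals but are not reported here by name.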

Additional observations from a re-analysis of the deposited data

How the results depend on the processing

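No paired analysis was possible because each group was deposited as 1 pooled table whose barcodes carry no sample, and for the same reason no replicate could be left out. RARB in BFRTV8d over BFRTV4d changed direction within classes, to 1.25 in epithelial-marker cells and 1.08 in mesenchymal-marker cells (added after seeing the data). With a minimum of 20 CPM, 2 of the 4 genes were called in BFRTV4d over BFRTV0d (4 with 10 CPM) and 1 in GMECs over BFRTV0d (2 with 10 CPM), and from 4-fold upwards 0 were called in BFRTV8d over BFRTV4d (1 from 2-fold). Of all genes in the same order, 12.3%, 5.90% and 2.26% were higher and 27.5%, 57.6% and 2.52% lower. Without a minimum level, 20, 27, 15, 24 and 35 pathway genes were called in BFRTV4d over BFRTV0d, BFRTV8d over BFRTV0d, BFRTV8d over BFRTV4d, CiMECs over GMECs and GMECs over BFRTV0d (11, 15, 9, 14 and 22 with 10 CPM). Of all genes compared then, 21.0%, 24.6%, 11.6%, 11.5% and 9.44% were higher. In the same order, 20.7%, 25.1%, 11.3%, 19.1% and 55.2% were lower. From 4-fold upwards, 5, 1, 6 and 13 were called in BFRTV4d over BFRTV0d, BFRTV8d over BFRTV4d, CiMECs over GMECs and GMECs over BFRTV0d, and with 20 CPM 7 in CiMECs over GMECs. From 4-fold, 5.35%, 2.26%, 2.66% and 3.88% of all genes were higher and 5.77%, 2.52%, 3.04% and 21.4% lower. With 20 CPM, 9.23% were higher and 14.2% lower in CiMECs over GMECs. The higher level of ALDH1A3 in epithelial-marker over mesenchymal-marker cells of BFRTV4d was 22.5-fold with a marker ratio of 10 (13.7-fold with 3). Fewer or more genes tested follow from these settings by construction, and other causes were not tested. Of the counts of the 4 genes called, 57 stayed within 1.5 times and 3 did not, where a change from 4 to 3 genes counts as within. Of the folds of the 4 genes in the planned settings, 69 stayed inside their counting interval. Another 50 did not, and these moved by up to 3.67 times. Of the shares of cells, 17 stayed inside their interval and 31 did not. Depth limits the low levels, such as RARB in BFRTV0d with 51 UMIs.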
